A study of Mus musculus with 18 samples.

Results

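The comparison described here is that of homozygous Atxn2-CAG100-KIN mice with wild-type (WT) mice in the neuronal fraction of the brain, read as small RNA. Its members were all RNAs that reached 5 counts in 2 or more of the 6 neuronal libraries, 5231 of the 24562 RNAs with any count in those libraries and of the 32713 with any count in the 18 libraries of the series. The mice were 10 months old and of C57BL/6 background, and the knock-in allele places an expanded CAG repeat (CAG100) in the mouse Atxn2 gene, the model of spinocerebellar ataxia type 2. There were 3 WT and 3 KIN libraries. Microglia, astrocytes and neurons were taken in that order from the same brain by magnetic beads. CD11b beads removed the microglia and ACSA-2 beads the astrocytes. The neurons were not bound by any bead of their own but were what flowed through after a cocktail against non-neuronal cells and CD31 beads. The study's methods give WT and KIN littermates of the same sex, in male and in female pairs. The labels give no sex, and number the replicates without saying that a number marks a pair or a brain. Values are relative amounts within a library, so fewer cells of a type and less RNA per cell cannot be told apart.

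Ataxin-2, the product of Atxn2, is a cytoplasmic RNA-binding protein that associates with poly(A)-binding protein and with the sites of RNA storage and decay, and a long polyglutamine stretch encoded by its CAG repeat makes it toxic to neurons. Small RNA libraries read several layers of RNA handling. Mature miRNAs guide the silencing of mRNAs through their seed, the bases 2 to 8 from the 5′ end. Small nucleolar RNAs (snoRNAs) guide the methylation (C/D box) or pseudouridylation (H/ACA box) of ribosomal RNA, snRNAs form the core of the spliceosome, and tRNAs deliver amino acids to the ribosome, with a set of their own encoded in mitochondrial DNA.

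The sequences of the miRNAs described at most length are shown first, so that shared seeds can be seen. Each is given 5′ to 3′ as in RefSeq (GRCm38.p6), with the seed in capitals. Of 217 mature miRNAs tested, 188 were matched to RefSeq, all of them with the sequence of the deposited table. On the scale used for single members below, each of the first group was higher in every KIN library than in any WT library.
miR-9-5p: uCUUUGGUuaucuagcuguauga
miR-9-3p: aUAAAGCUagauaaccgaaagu
let-7b-5p: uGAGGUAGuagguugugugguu
let-7c-5p: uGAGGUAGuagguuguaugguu
miR-92a-3p: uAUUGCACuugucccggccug
The second group holds the miR-200 family and the miR-182/183 pair, whose medians lay below zero. miR-200b-3p, miR-200c-3p and miR-429-3p share a seed, from which that of miR-200a-3p differs.
miR-200a-3p: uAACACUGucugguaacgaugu
miR-200b-3p: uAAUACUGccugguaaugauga
miR-200c-3p: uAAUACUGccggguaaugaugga
miR-429-3p: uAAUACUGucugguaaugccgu
miR-182-5p: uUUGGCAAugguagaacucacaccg
miR-183-5p: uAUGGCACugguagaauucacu

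The WT libraries held 1211118, 1956491 and 1527590 counts (replicates 1 to 3) and the KIN libraries 2343693, 2427384 and 2424979, so the depth did not overlap between genotypes, and the part of depth in the results below was not tested. The KIN libraries correlated with each other at 0.955 to 0.957 over the members, in log2 CPM, where CPM is counts scaled to a common library size of 1e6, and the WT libraries at 0.852 to 0.905. WT replicate 2 stood apart. It had the largest shares of tRNA and mitochondrial tRNA, the largest oligodendrocyte and erythroid miRNA levels, and the only high level of several neuronal transcripts. Results that rest on it are given with and without it. All levels by member are CPM with library sizes scaled by the trimmed mean of M-values (TMM).

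The label of the fraction was checked against marker lists. In the WT libraries the summed level of 10 neuronal miRNAs was 1022 to 2521 CPM of the library total in neurons, 7267 to 12797 in astrocytes and 152 to 429 in microglia. miR-124-3p, which defines neurons, reached 41.3 to 158 CPM in WT neurons, 1014 to 2538 in WT astrocytes and 37.7 to 100.2 in WT microglia. The data therefore go against the label for these miRNAs, which were higher in the astrocyte fraction, while 20 neuronal transcripts summed to 71.4 to 297 CPM in WT neurons and 54.3 to 101 in WT astrocytes. Rbfox3, the transcript of the nuclear marker NeuN, had 1 count in all 6 neuronal libraries together. Of the same 20 transcripts, Tubb3, Map2, Gad1 and Stmn2 were higher in every WT neuronal library than in any WT astrocyte library. Camk2a was lower in every WT neuronal library, and the others, Rbfox3 among them, overlapped between the fractions. The 10 astrocyte transcripts summed to 8.26 to 30.2 CPM in WT neurons against 347 to 411 in WT astrocytes, and the 10 microglial transcripts to 2.48 to 3.93 CPM against 126 to 172 in WT microglia. The 10 endothelial and pericyte transcripts summed to 61.5 to 74.3 CPM in WT neurons, above the 34.6 to 50.6 CPM of WT astrocytes and within the 32.5 to 128 CPM of WT microglia. Most of this sum was Pecam1, at 55.6 to 70.2 CPM in WT neurons and 23.1 to 41.3 CPM in WT astrocytes. Cldn5 had 0 counts in the 6 neuronal libraries. The 10 oligodendrocyte transcripts were 8.26, 86.9 and 13.7 CPM in WT neurons, against 30.4 to 34.3 CPM in WT astrocytes. Only WT replicate 2 of neurons lay above the astrocyte libraries. The 3 oligodendrocyte miRNAs summed to 0.655 to 111 CPM in WT neurons and 1770 to 3035 CPM in WT astrocytes. In the plot of marker lists the erythrocyte transcripts, which encode the globins and a heme synthesis enzyme, were highest in the neuronal fraction, at 48.0 to 140 CPM in WT and 18.97 to 47.8 CPM in KIN neurons, against at most 1.64 CPM in WT libraries of the other fractions.

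**Figure D1:**
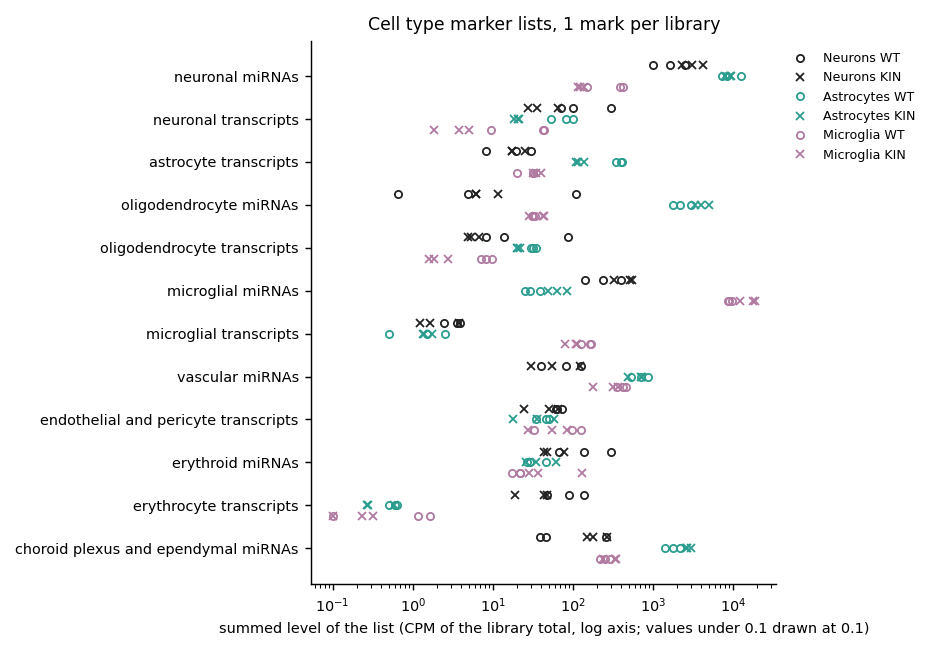
Summed level of each cell type marker list (CPM of the library total, log axis), with 1 mark per library, by fraction and genotype. Neuronal miRNAs are higher in the astrocyte than in the neuronal fraction, and erythrocyte transcripts are highest in the neuronal fraction.

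No member passed the test in the neuronal fraction. edgeR's quasi-likelihood test called 0 of 5231 members (0.0%) at a Benjamini-Hochberg adjusted p of at most 0.05 with a log2 fold change of at least 1 in either direction, and the smallest adjusted p was 0.954. An unadjusted p ≤ 0.05 was reached by 211 members, 77 higher (1.47% of those tested) and 134 lower (2.56%) in KIN. DESeq2 also called 0, and gave 113 members an unadjusted p ≤ 0.05, with a smallest adjusted p of 0.095. The groups did not overlap, in either direction, for 301 members higher (5.75%) and 267 lower (5.1%) in KIN.

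The width of the intervals sets what these libraries can show. The median 95% interval reached 1.29 on the log2 scale to either side of the fold change. It lay within ±1 for 443 members and within ±2 for 3215, so that a change of more than 2-fold was outside the interval for the former only. Of the 134 lower members among these 211, 60 were highest in WT replicate 2 and 53 overlapped between genotypes. Of the 77 higher, 0 were highest in that library and 10 overlapped. The median fold change of all members was −0.05 (2462 of 5231 higher). It was −0.15 with library totals as the scale and −0.28 with TMM factors from the mature miRNAs alone, and the values below are on the TMM scale of all RNAs unless another is named.

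**Figure D2:**
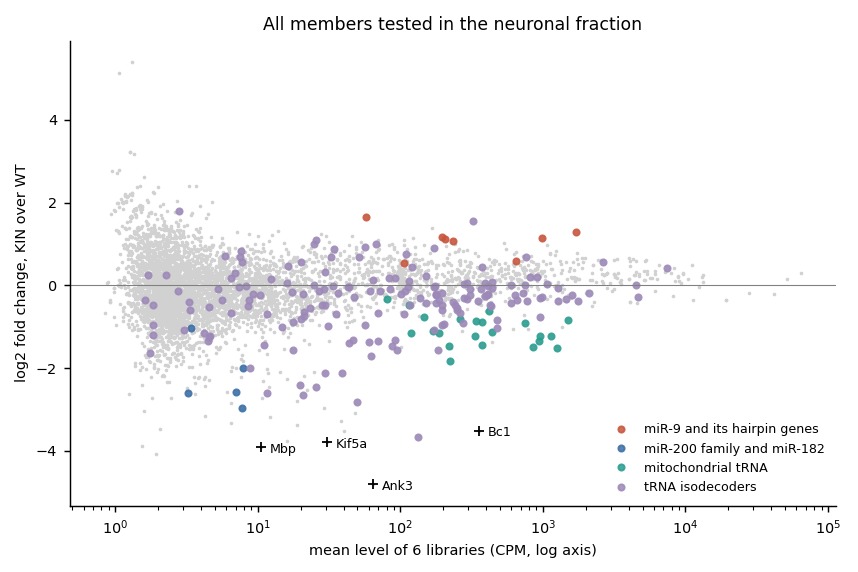
Log2 fold change of KIN over WT neurons for the 5231 members against their mean level in the 6 libraries (CPM, log axis). Marked are miR-9 with its hairpin genes, the miR-200 family with miR-182, mitochondrial tRNAs, tRNA isodecoders, and Ank3, Kif5a, Mbp and Bc1. None passed the adjusted threshold, and the spread narrows as the level rises.

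Atxn2 itself (chr5:121849400-121954556, GRCm39) was near the floor of detection. Its level was 4.94, 1.48 and 0 CPM in WT and 0.44, 0.93 and 3.97 CPM in KIN neurons, and the genotypes overlapped. The log2 fold change was −0.09 ± 1.098 (SE) with a 95% interval of −2.47 to 2.29. A read count cannot show the length of the repeat, so these data do not check the genotype. The list of Atxn2 and its partners had 6 tested members, 3 higher and 3 lower, with a median of 0.04 that was −0.13 with miRNA factors and −0.04 with library totals. The median of all members was −0.05. Pabpc1, the poly(A)-binding protein, was 24.7, 5.41 and 9.72 CPM in WT and 6.57, 7.01 and 9.54 CPM in KIN, a fold change of −0.73 ± 0.54 that was −0.01 without WT replicate 1.

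Among RNA classes, snoRNAs took the largest share, 26.3 to 34.3% of counts in WT and 30.2 to 32.3% in KIN neurons. Mature miRNAs took 0.964, 1.93 and 1.08% in WT and 2.13, 1.33 and 1.60% in KIN. Of 15 classes, 2 did not overlap between genotypes. Ribosomal RNA was 5.42, 4.57 and 5.26% in WT against 4.299, 4.25 and 4.14% in KIN, a difference of −0.854 percentage points. Mitochondrial rRNA and mRNA were 0.756, 1.101 and 0.75% in WT against 0.573, 0.577 and 0.650% in KIN. Both had an exact two-sided permutation p of 0.1, the smallest that 10 splits allow, and an adjusted p of 0.75 over the 15 classes. By member the ribosomal RNA class went the other way, with 55 of 65 tested higher in KIN and a median fold change of 0.30. These 65 summed to 54012.7, 44030.5 and 48778.8 CPM in WT and 44137.1, 48186.8 and 39890.8 CPM in KIN (TMM scale), and overlapped. Taken among the reads of the miRNA, tRNA and piRNA references alone, the mature miRNA share did not overlap, at 10.9, 10.9 and 9.55% in WT and 15.3, 11.1 and 13.9% in KIN (exact permutation p = 0.1).

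miR-9, an abundant miRNA of neural progenitors, neurons and astrocytes, had the smallest unadjusted p among the higher members of at least 10 CPM without overlap. miR-9-5p was 518, 1574 and 889 CPM in WT and 3135, 1891 and 2282 CPM in KIN. All KIN libraries lay above all WT libraries, and WT replicate 2 was the nearest to KIN. The log2 fold change was 1.29 ± 0.38 (SE, 95% interval 0.47 to 2.12), and edgeR gave 1.74 without WT replicate 2 (adjusted p 0.0117) and 0.91 without WT replicate 1 (adjusted p 0.381).

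The other products of the same genes stood apart in the same direction. The opposite arm, miR-9-3p, was 443, 607 and 501 CPM in WT and 1055, 664 and 619 CPM in KIN, with a fold change of 0.59 ± 0.32. In CPM of the library total miR-9-3p overlapped, at 444 to 631 CPM in WT and 585 to 1027 CPM in KIN. Mir9-2hg, the long noncoding host transcript (chr13:83863087-84100589, plus strand), was 375, 897 and 572 CPM in WT against 1703, 1124 and 1237 CPM in KIN, a fold change of 1.14 ± 0.35. It contains the hairpin Mir9-2 (chr13:83886933-83887004), whose fold change was 1.18 ± 0.39. Mir9-1 (chr3:88122905-88122993) had 1.13 ± 0.38 and Mir9-3 (chr7:79155012-79155101) had 1.08 ± 0.36. The 3 hairpins give the same mature sequence, so these are not taken as separate measurements. Reads were mapped in successive rounds, mature miRNAs first, and whether the hairpin genes and the host transcript share reads was not tested. In the astrocyte fraction Mir9-2hg was 1919 to 3150 CPM in WT libraries, above its level in every neuronal library, while the astrocyte transcripts in neurons were 8.26 to 30.2 CPM in WT and 17.3 to 25.2 CPM in KIN. The part of carried-over astrocyte RNA was not tested.

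let-7 miRNAs, which mark differentiated cells and restrain growth genes, had 13 members tested, of which 11 were higher and 2 lower in KIN with a median fold change of 0.31, beside −0.05 for all members. Without WT replicate 1 the median was −0.05, as for all members, and without WT replicate 2 it was 0.55. At an unadjusted p of at most 0.05, 2 were higher and 0 lower, beside 1.47% and 2.56% of all members. let-7b-5p was 458, 366 and 228 CPM in WT and 788, 550 and 792 CPM in KIN, with a fold change of 1.02 ± 0.34 that was also 1.02 without WT replicate 2. let-7c-5p was 1035, 976 and 647 CPM in WT against 1822, 1299 and 1633 CPM in KIN, a fold change of 0.84 ± 0.30. For both, the genotypes were apart. let-7f-5p, with the same seed, was 263, 478 and 213 CPM in WT and 377, 282 and 314 CPM in KIN and overlapped, at 0.03 ± 0.36.

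The let-7b and let-7c genes share a transcript. Lncppara (chr15:85529788-85595393, plus strand), the long noncoding RNA that contains Mirlet7b and Mirlet7c-2, was 840, 803 and 514 CPM in WT and 1610, 1136 and 1492 CPM in KIN, a fold change of 0.97 ± 0.30 with no overlap. Whether reads of the 2 hairpins count toward it as well was not tested.

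The miR-17-92 and miR-106b-25 clusters, which promote proliferation and survival, had 13 tested members, all higher in KIN with a median of 0.68. With miRNA factors 12 of 13 were higher and the median was 0.55, and it was 0.28 without WT replicate 1 and 1.18 without WT replicate 2. miR-92a-3p was 46.1, 105 and 75.9 CPM in WT and 212, 143 and 151 CPM in KIN, a fold change of 1.15 ± 0.39 without overlap. Its hairpin Mir92-1 (chr14:115281859-115281938, inside Mir17hg) had 1.196 ± 0.40. miR-17-3p was 0, 4.43 and 1.21 CPM in WT and 11.0, 6.07 and 4.37 CPM in KIN, and there WT replicate 2 lay above KIN replicate 3. The 6 miRNAs with the seed AAAGUGC, among them miR-17-5p, miR-20a-5p and miR-106b-5p, were all higher with a median of 0.62.

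miR-181 miRNAs, abundant in brain and in lymphocytes, were higher for 5 of 7 members with a median of 0.65. miR-181b-5p was 109, 185 and 135 CPM in WT and 366, 211 and 252 CPM in KIN, a fold change of 0.95 ± 0.36 without overlap. Other abundant miRNAs had intervals that included zero. miR-125b-5p was 942, 2093 and 1330 CPM in WT and 2403, 1864 and 1929 CPM in KIN (0.51 ± 0.32), and miR-16-5p was 549, 810 and 524 CPM against 907, 582 and 609 CPM (0.16 ± 0.32, 95% interval −0.54 to 0.85). The miR-30 family had 6 of 7 higher with a median of 0.21, which was 0.00 without WT replicate 1 and 0.70 without WT replicate 2. The miR-99/100 and miR-125 families had 5 of 6 higher with a median of 0.38, which was 0.17 and 0.70 in the same settings. The miR-29 family had 2 of 4 higher with a median of −0.28, which was 0.17 with library quality weights, −0.76 without WT replicate 1 and 0.69 without WT replicate 2. The miR-23/27/24 clusters had 2 of 4 higher with a median of 0.00, which was −0.31 without WT replicate 1 and 0.59 without WT replicate 2. The medians of these families thus moved with the WT library left out.

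Marker miRNAs of blood and immune cells overlapped between genotypes. miR-142a-3p, found in blood-derived cells and microglia, was 29.6, 157 and 89.9 CPM in WT and 304, 287 and 138 CPM in KIN, with WT replicate 2 above KIN replicate 3 and a fold change of 1.39 ± 0.53. The 5 microglial miRNAs, of which 4 were higher, summed to 144 to 401 CPM in WT and 325 to 553 CPM in KIN neurons, against 8754 to 9891 CPM in WT microglia. The erythroid miR-451a was 119, 269 and 58.3 CPM in WT against 71.9, 43.4 and 42.5 CPM in KIN, a fold change of −1.50 ± 0.51 with overlap. miR-486a-5p, also erythroid, had −1.56 ± 0.59. The globin transcript Hbb-bs was 67.5, 22.6 and 44.9 CPM in WT and 21.9, 23.8 and 7.55 CPM in KIN, a fold change of −1.33 ± 0.53. In CPM of the library total, the summed globin and heme synthesis transcripts did not overlap between genotypes, as given above. On the TMM scale the 4 tested overlapped, at 139, 46.3 and 82.6 CPM in WT and 45.6, 54.2 and 18.3 CPM in KIN. The 20 neuronal transcripts did not overlap, and summed to 102, 297 and 71.4 CPM of the library total in WT and 36.3, 27.6 and 66.0 CPM in KIN. Of the 7 neuronal transcripts tested, 6 were lower. The 10 neuronal miRNAs went the other way in sum, at 1022 to 2521 CPM of the library total in WT and 2345 to 4278 CPM in KIN, and overlapped. Of the 8 tested, 4 were higher and 4 lower, with a median of 0.02. That median was −0.33 without WT replicate 1 and 0.63 without WT replicate 2. The part of these cells in the other differences was not tested.

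The miR-200 family, known from epithelia and the olfactory system, was lower in KIN for all 4 tested members, with a median of −2.29 in the 6 libraries and in the set without WT replicate 2. Of these, 3 were lower at an unadjusted p of at most 0.05 (2.56% of all members) and the same 3 had no overlap (5.1% of all members). miR-200a-3p was 10.7, 11.8 and 14.0 CPM in WT and 0.44, 1.40 and 3.97 CPM in KIN, which came from 13, 24 and 23 counts against 1, 3 and 10. The fold change was −2.58 ± 0.59 (95% interval −3.86 to −1.30). miR-200b-3p was 15.6, 13.8 and 8.50 CPM in WT against 1.75, 1.40 and 5.96 CPM in KIN, at −1.998 ± 0.56.

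miR-429-3p, from the same locus, was 7.41, 2.95 and 6.68 CPM in WT and 0, 0.93 and 1.59 CPM in KIN, a fold change of −2.60 ± 0.76. miR-200c-3p, from another chromosome, was 9.88, 1.97 and 2.43 CPM in WT and 0.44, 0.93 and 4.77 CPM in KIN, and overlapped at −1.04 ± 0.84. The hairpins Mir200b (chr4:156140138-156140207), Mir200a (chr4:156139353-156139442) and Mir429 (chr4:156138362-156138444) lie side by side on the minus strand. In the fit of all 18 libraries the KIN fold change of miR-200a-3p was −6.75 in astrocytes and −2.55 in microglia, so the lower level was not seen in neurons alone.

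The sensory cluster of miR-183, miR-96 and miR-182, named for the organs in which it is abundant, was low as well. miR-182-5p was 12.4, 24.6 and 4.25 CPM in WT and 1.75, 1.40 and 1.99 CPM in KIN. No KIN library reached any WT library, and the fold change was −2.97 ± 0.64, with the smallest unadjusted p among the miRNAs named here (0.000473). miR-183-5p was 3.29, 2.46 and 4.25 CPM in WT against 0.44, 2.34 and 1.59 CPM in KIN, at −1.16 ± 0.70. The hairpins Mir182 (chr6:30165917-30165991) and Mir183 (chr6:30169667-30169736) are on the minus strand of the same locus. miR-132-3p, which neuronal activity induces, was 4.12, 12.3 and 2.43 CPM in WT and 0.88, 0.47 and 1.59 CPM in KIN, at −2.63 ± 0.73 without overlap.

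The imprinted Dlk1-Dio3 region carries a large cluster of miRNAs and C/D box snoRNAs that are abundant in brain. Of its 20 tested members 18 were lower, with a median of −0.86 that was 0.00 without WT replicate 2. miR-434-3p was 8.23, 86.1 and 9.11 CPM in WT and 10.5, 7.01 and 5.56 CPM in KIN, so its fold change of −2.18 ± 0.78 rested on WT replicate 2 and was −0.22 without it. miR-379-5p was 5.76, 3.94 and 1.21 CPM in WT and 1.31, 0.47 and 1.19 CPM in KIN, and its fold change of −1.76 ± 0.78 was −1.70 without that library. The host transcript Rian was 571, 339 and 558 CPM in WT and 409, 382 and 494 CPM in KIN, with overlap.

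**Figure D3:**
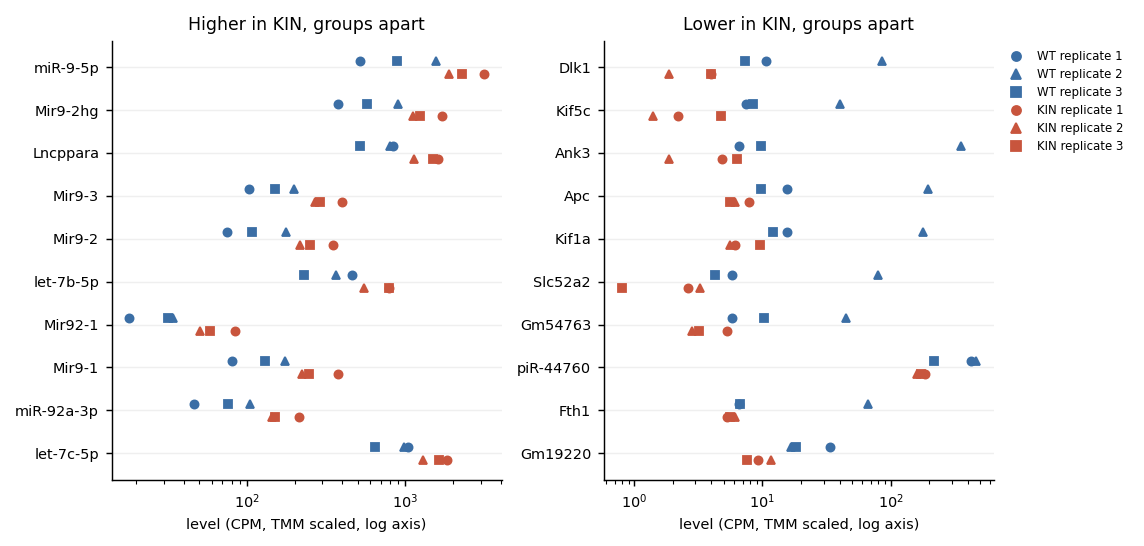
Level of each member named by rule in the 6 neuronal libraries (CPM, TMM scaled, log axis), with those higher in KIN on the left and those lower on the right. On the right WT replicate 2 lies far above the other WT libraries for the kinesins, Ank3, Apc, Dlk1 and Fth1.

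piRNA entries gave little difference, with 61 of 109 tested members higher and a median of 0.06, or −0.03 without WT replicate 2. piRNAs are germ line RNAs, and of the 92 entries with a sequence 68 lay wholly within a tested transcript of another class. These 68 held 79.9% of the CPM of the 92. The entry piR-44760 was 427, 464 and 219 CPM in WT and 187, 160 and 172 CPM in KIN, a fold change of −1.095 ± 0.36 without overlap. Its sequence is shown because it lies within the 7S RNA of the signal recognition particle, the transcripts Rn7s1, Rn7s2 and Rn7s6.
piR-44760: tagtgcgctatgccgatcgggtgtccgcac
Rn7s2, the whole 7S RNA, was 1528, 1825 and 1663 CPM in WT and 1356, 1471 and 1006 CPM in KIN, a fold change of −0.39 ± 0.27 that also had no overlap.

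C/D box snoRNAs made a broad but small displacement. Of 95 tested members 76 were higher and 19 lower, with a median of 0.27 beside −0.05 for all members, and 53 had a 95% interval within ±1. The median was −0.03 with miRNA factors, under which 39 of the 95 were higher. At an unadjusted p of at most 0.05, 6 were higher and 0 lower, and 25 higher and 1 lower were without overlap, beside 5.75% and 5.1% of all members. Snord37 was 2059, 2630 and 3105 CPM in WT and 4009, 4385 and 3828 CPM in KIN, a fold change of 0.65 ± 0.25. Snord98 was 684, 1006 and 1044 CPM in WT against 1535, 1605 and 1385 CPM in KIN, at 0.73 ± 0.28. In both the lowest library was WT replicate 1, and without it the fold changes were 0.45 and 0.50.

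The most abundant snoRNA did not follow. Snord68 was 34481, 13623 and 16485 CPM in WT and 13632, 19330 and 17804 CPM in KIN, and its fold change was −0.35 ± 0.31 and 0.11 without WT replicate 1. H/ACA box snoRNAs, which guide pseudouridylation, had 34 of 40 higher with a median of 0.37, 0 at an unadjusted p of at most 0.05 in either direction and 0 without overlap. The median was 0.08 without WT replicate 1. Scarna RNAs of the Cajal body had 5 of 10 higher with a median of −0.03.

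Spliceosomal snRNAs went the same way. The 7 major snRNAs were all higher with a median of 0.26, which was −0.01 with miRNA factors and 0.02 without WT replicate 1, and 0 passed an unadjusted p of 0.05. Rnu5g, a U5 snRNA, was 900.0, 1898 and 1798 CPM in WT and 2873, 2443 and 1905 CPM in KIN, a fold change of 0.65 ± 0.32 with no overlap. WT replicate 1 was far below the others, and without it the fold change was 0.32. The minor spliceosomal and other U RNAs had a median of 0.15 with 4 of 4 higher, or −0.18 with miRNA factors.

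Proteins that assemble snRNPs were rare in these libraries, and 4 of 19 genes of the SMN, Sm and PRMT5 list were tested. Snrpe was 0.82, 1.97 and 1.21 CPM in WT and 3.07, 5.14 and 4.77 CPM in KIN, at 1.58 ± 0.61. Snrpd1, another Sm protein of the snRNP ring, was 1.65, 0.49 and 0.61 CPM in WT against 2.63, 2.80 and 4.77 CPM in KIN, at 1.96 ± 0.76. Both were without overlap at a level of a few counts, beside 5.75% of all members higher without overlap. Of the 4 tested, 3 were higher and 1 was lower, with fold changes from −0.20 to 1.96.

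Neuron-specific snoRNAs and Bc1 had 16 of 19 members higher with a median of 0.09, which was −0.02 with library totals, −0.02 without WT replicate 2 and −0.23 with miRNA factors. With library totals 8 were higher, and with miRNA factors 1. The list includes Snord116 copies of the Snhg14 locus described below, where 57 of 183 tested snoRNA genes were higher and 126 lower, with a median of −0.18. Bc1, a cytoplasmic RNA of dendrites (chr7:144468199-144468374), was 68.3, 1847 and 52.2 CPM in WT and 68.8, 55.6 and 47.7 CPM in KIN. Only WT replicate 2 was high, and the fold change of −3.52 ± 1.05 was −0.11 without it. Snord64 was 114, 125 and 145 CPM in WT and 217, 158 and 183 CPM in KIN, apart at 0.54 ± 0.33.

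tRNAs showed how far 1 library set the direction of a class. Of 168 tRNA isodecoders 45 were higher and the median was −0.28. Without WT replicate 2 there were 157 higher with a median of 0.77. tRNA-Gly-CCC-2 was 8.23, 720 and 9.11 CPM in WT and 17.5, 17.7 and 22.7 CPM in KIN, and its fold change was −3.67 with all libraries and 1.11 without WT replicate 2. tRNA-Glu-CTC-1, the most abundant, was 2183, 9710 and 7175 CPM in WT and 9932, 9068 and 6402 CPM in KIN, at 0.41 ± 0.41 with an interval of −0.48 to 1.31. tRNA-Asp-GTC-1 was 977, 9203 and 3337 CPM in WT and 5238, 4997 and 3393 CPM in KIN, at 0.01 ± 0.55. The 5 Tyr isodecoders were all higher, with a median of 1.01 and 1.03 without WT replicate 2.

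Mitochondrial tRNAs were lower for all 22 genes, with a median of −1.14, and higher for all 22 without WT replicate 2, with a median of 0.83. With library quality weights the median was 0.07. mt-Ts1 was 52.7, 913 and 80.2 CPM in WT and 85.5, 103 and 105 CPM in KIN, with a fold change of −1.84 ± 0.81 that became 0.51 without that library. The direction of the mitochondrial tRNAs thus turned on 1 library.

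Mitochondrial mRNAs and rRNAs were lower for all 15 genes, with a median of −0.43, and for 10 of 15 without WT replicate 2, with a median of −0.20. mt-Rnr2, the large mitochondrial rRNA, was 4919, 6467 and 4265 CPM in WT against 3711, 4088 and 3807 CPM in KIN, at −0.43 ± 0.24 without overlap, and at −0.28 without WT replicate 2. mt-Rnr1, the small one, was 2185, 3331 and 2242 CPM in WT against 1793, 2051 and 2032 CPM in KIN, at −0.40 ± 0.27. mt-Nd2, a subunit of complex I, had −0.77 ± 0.39 and was also apart. Nuclear genes of oxidative phosphorylation had 16 of 43 higher with a median of −0.23, and Cox6a1 was 5.76, 6.40 and 1.82 CPM in WT against 1.75, 1.87 and 1.19 CPM in KIN.

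Other small cytoplasmic RNAs had 1 of 10 higher with a median of −0.38, and 3 of 10 higher with a median of −0.03 without WT replicate 2. Rny1, a Y RNA, was 644, 4051 and 772 CPM in WT and 1166, 812 and 725 CPM in KIN, at −1.02 ± 0.57 and 0.30 without WT replicate 2. Rmrp, which cleaves mitochondrial and ribosomal precursors, was 804, 1145 and 1249 CPM in WT and 1029, 1086 and 1046 CPM in KIN, at −0.02 ± 0.28 with an interval of −0.63 to 0.59.

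Counts of protein-coding genes lay largely in genes that contain small RNAs. Of the 3032 genes tested, 70 contained the whole sequence of 114 tested small RNA genes, and these 70 held 67.5 to 76.6% of the protein-coding counts. Of 30 such pairs whose small RNA had 50 or more counts in each library, 16 had a ratio between host and small RNA of 0.9 to 1.1 in all 6 libraries. Other pairs were far from equal, with ratios of 17.9 to 44.0 for Ncl over Snora75 and 0.0036 to 0.0148 for Eef2 over Snord37. The part of host counts that came from the small RNA was not tested. Rpl13, a ribosomal protein gene, and Snord68, which lies in its transcript Rpl13-202 (chr8:123829777-123829862), had ratios of 1.0044 to 1.0054. The sequence of Snord68, from GRCm39, is printed because both genes had nearly the same counts, with the C box and the D box in capitals.
Snord68: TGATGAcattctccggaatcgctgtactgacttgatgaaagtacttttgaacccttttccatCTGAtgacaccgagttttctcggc
Ribosomal protein genes, of which 53 of 80 were higher with a median of 0.13 (−0.18 with miRNA factors and −0.12 without WT replicate 2), include such hosts. Histone genes had 38 of 70 higher with a median of 0.04, or −0.27 with miRNA factors, −0.07 with library totals and −0.04 without WT replicate 2, and 0 at an unadjusted p of at most 0.05.

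Several lower members named by rule had their values set by WT replicate 2. Ank3, the scaffold of the axon initial segment, was 6.59, 357 and 9.72 CPM in WT and 4.82, 1.87 and 6.36 CPM in KIN. Kif5c, a kinesin motor of axonal transport, was 7.41, 40.4 and 8.50 CPM in WT and 2.19, 1.40 and 4.77 CPM in KIN. Kif1a, the motor of synaptic vesicle precursors, was 15.6, 181 and 12.1 CPM in WT and 6.14, 5.61 and 9.54 CPM in KIN. WT replicate 2 was the highest by far in each. The fold changes were −4.81 ± 1.26, −2.73 ± 0.71 and −3.29 ± 0.88, and without that library they were −0.94, −1.51 and −0.98.

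Dlk1, an imprinted ligand of the Notch family, was 10.7, 85.1 and 7.29 CPM in WT against 3.94, 1.87 and 3.97 CPM in KIN, at −3.39 ± 0.84 and −1.45 without WT replicate 2. Apc was 15.6, 197 and 9.72 CPM in WT and 7.89, 6.07 and 5.56 CPM in KIN, at −3.51 ± 0.93 and −0.98. Fth1, the ferritin heavy chain, had 6.59, 66.4 and 6.68 CPM in WT and 5.26, 6.07 and 5.56 CPM in KIN, at −2.26 ± 0.78 and −0.27. Kif5a, a neuronal kinesin, was 14.8, 151 and 5.47 CPM in WT and 2.63, 2.80 and 6.76 CPM in KIN and overlapped. Mbp, the myelin protein, was 0, 55.1 and 4.25 CPM in WT and 0.88, 1.87 and 1.19 CPM in KIN, and the oligodendrocyte miRNAs were highest in the same library, at 111 CPM of the total against 0.655 to 11.5 CPM in the others. The pseudogene Gm19220, at 33.8, 16.7 and 18.2 CPM in WT and 9.20, 11.7 and 7.55 CPM in KIN, did not rest on WT replicate 2, with −1.26 ± 0.44 and −1.47.

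**Figure D4:**
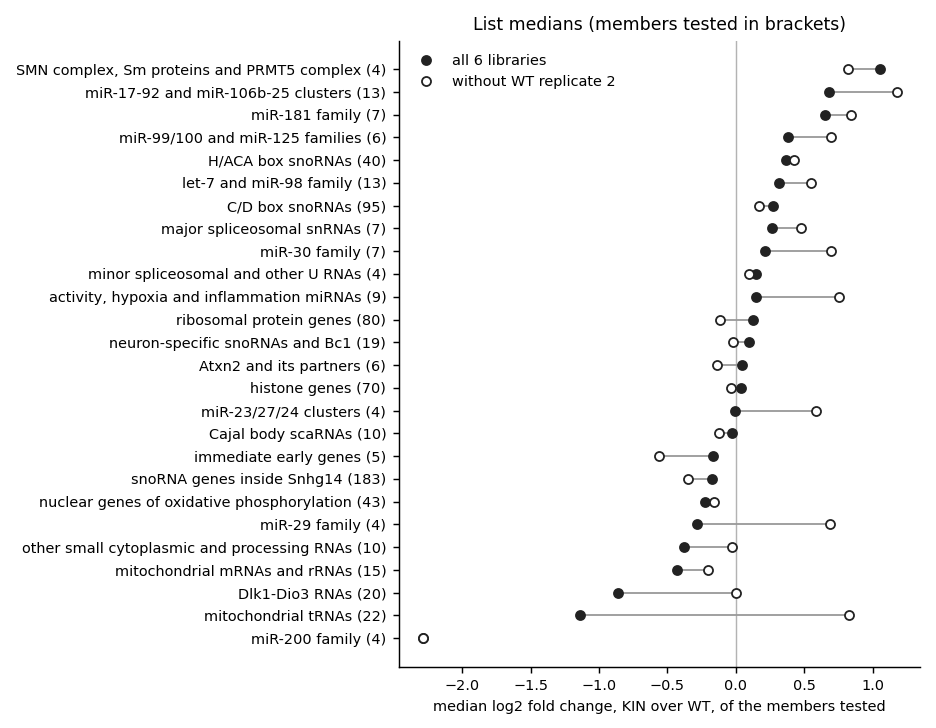
Median log2 fold change of KIN over WT neurons of each list, with all 6 libraries (filled) and without WT replicate 2 (open). The medians of mitochondrial tRNAs (−1.14 and 0.83) change sign and that of the miR-200 family (−2.29) does not move.

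The KIN effect in neurons was set against that in the other fractions in a fit of all 18 libraries. Between neurons and astrocytes edgeR called 0 of 5231 members at an adjusted p of at most 0.05 (0.0%), while 442 had an unadjusted p ≤ 0.05, and DESeq2 called 0. Between neurons and microglia 102 members differed (1.95%), with a higher KIN effect in neurons for 86 and a lower one for 16.

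Of the 102 members, 75 were snoRNA genes, and 72 of these lay inside Snhg14 (chr7:58957672-59628040, minus strand), the host of the Snord115 and Snord116 repeats that are imprinted and abundant in neurons. In the neurons, 183 tested snoRNA genes of this locus were higher for 57 and lower for 126, with a median of −0.18. Their summed level, in CPM of the library total, was 7987, 6939 and 9933 in WT and 8148, 6238 and 8193 in KIN neurons, and overlapped. In microglia it was 1445, 350 and 1444 CPM in WT and 141, 89.9 and 114 CPM in KIN, where the groups were apart. Snhg14 itself was 235, 181 and 269 CPM in WT and 240, 217 and 208 CPM in KIN neurons. Since the copies are nearly identical, the counts of single copies are uncertain. The number that differed was set by single libraries, at 11 without KIN replicate 2 of microglia and 198 without WT replicate 1 of neurons.

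**Figure D5:**
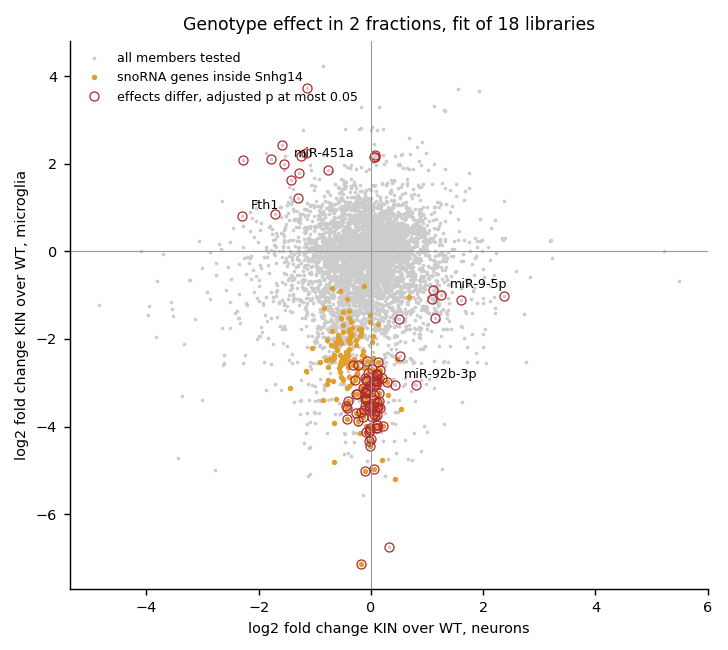
Log2 fold change of KIN over WT in neurons against that in microglia for the members tested, from the fit of 18 libraries, with those inside Snhg14 and the other members that differed marked. The Snhg14 snoRNAs sit near 0 in neurons and below 0 in microglia.

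miRNAs and their genes were the next most numerous. miR-9-5p differed by 2.25 on the log2 scale (adjusted p 0.0129 in edgeR), with a fold change of 1.25 in neurons and −0.995 in microglia. Mir9-2hg was 67.4, 29.4 and 76.9 CPM in WT and 21.0, 24.1 and 22.1 CPM in KIN microglia, below its level in every neuronal library. miR-21a-5p, an inflammation-associated miRNA, differed by −2.13, with 0.07 in neurons and 2.20 in microglia. miR-451a and miR-486a-5p of red cells differed by −3.54 and −4.02, with negative fold changes in neurons and positive ones in microglia. In microglia miR-451a was 16.4, 19.3 and 20.5 CPM of the library total in WT and 25.7, 118 and 31.0 CPM in KIN. There miR-486a-5p was 0.864, 2.88 and 1.36 CPM in WT and 2.86, 13.0 and 5.82 CPM in KIN. KIN replicate 2 of microglia, without which 11 members differed in all, was far the highest for both, and miR-486a-5p overlapped. In astrocytes the fold change of miR-9-5p was 0.30, and its difference from neurons was not called.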

How the data were processed

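Small RNA libraries of 3 WT and 3 KIN neuronal fractions were compared, with the 12 libraries of the other fractions for the interaction. The authors deposited raw counts per feature (unit: counts), made with cutadapt 4.6, Bowtie2 2.4.4 and HTSeq 2.0.2 on mm39 per the submitters' processing notes, in successive rounds against mature miRNA, tRNA, piRNA, Ensembl noncoding RNA and Ensembl cDNA. The kit has molecular identifiers, but their collapsing is not given in the sources used here for these libraries, and intervals cover the spread between libraries. The table's 36 other per-library columns and its columns of the authors' DESeq2 comparisons (fold changes and p-values) were not used.

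Transcripts were summed per gene and tRNA copies per isodecoder. Of 146263 Ensembl features, 145452 were matched to GENCODE vM39 (GRCm39) by ID, 594 by symbol, and 217 were unmatched. RNAs that reached 5 counts in 2 or more of 6 libraries were tested with edgeR 4.0.16 (R 4.3.3, limma 3.58.1) with TMM factors and genotype as the only term, Benjamini-Hochberg over all tested, called at adjusted p ≤ 0.05 and an absolute log2 fold change ≥ 1. DESeq2 1.42.0 was an alternative. The interaction used all 18 libraries. Class shares were tested by exact permutation. Scripts were checked on simulated data.

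Named members were the 10 higher and 10 lower with the smallest unadjusted edgeR value among those of at least 10 CPM without overlap, the 5 most abundant of each class, and the most abundant members and those of each list at an unadjusted 0.05. Snhg14, miR-9b-3p, miR-34a-5p, miR-92b-3p, Myo9a and tRNA-Gly-CCC-2 were named after their values were seen. Members and lists were chosen with earlier results of these data known. The study's methods describe mutant and WT mice of both sexes in pairs, with the fractions of a brain taken in sequence, but the labels tie no library to a pair, sex or brain, so the fit of all 18 libraries treats fractions as independent. A fit without protein-coding genes and pseudogenes was added after the data were seen.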

Additional observations from a re-analysis of the deposited data

Results flagged for a closer look

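The KIN effect in neurons differed from that in microglia for 102 of 5231 members in edgeR's test of the interaction, as given above, and 15 of the members whose values are given were among them. On the log2 scale the effect in neurons minus that in microglia was 2.25 for miR-9-5p, 2.66 for Mir9-2, 2.18 for Mir9-1 and 1.97 for Mir9-2hg. It was −3.54 for miR-451a, −4.02 for miR-486a-5p and −3.11 for Fth1. Among members outside the naming rule or without an unadjusted p ≤ 0.05 in neurons it was 2.86 for Snhg14, 2.37 for Rian, 2.03 for Snord64, 3.48 for miR-92b-3p, 2.70 for miR-9b-3p, 3.39 for Myo9a, −2.13 for miR-21a-5p and −3.88 for miR-34a-5p. The value of Fth1 rests on WT replicate 2 of neurons, without which its fold change in neurons was −0.27.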

How the results depend on the processing

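The number of members called in neurons, 0, was also 0 with DESeq2, RLE factors, library totals, quality weights, the stricter filter, single features and without protein-coding genes and pseudogenes. It was 18 with TMM from mature miRNA (0 higher), 51 of 24562 without the low count filter (1 higher), and 12 in 1 fit of 18 libraries (0 higher). Leaving out 1 library gave 0 to 11 calls. The 11 came without WT replicate 1, all lower, and 7 without WT replicate 2, of which 6 were higher, among them miR-9-5p, miR-204-5p (2.43) and miR-142a-3p (1.96), and 1 lower, miR-200a-3p. The cause was not tested. Of 1229 alternative values of 79 members whose values are given, 1182 kept their direction and 47 turned, in 13 members. Leaving out each library gave −2.41 to 0.51 for mt-Ts1, −1.49 to 0.30 for Rny1, −4.30 to 1.11 for tRNA-Gly-CCC-2 and −2.28 to 2.22 for miR-34a-5p, each of them turning without WT replicate 2. It gave −0.62 to 0.11 for Snord68 and −0.060 to 0.80 for tRNA-Glu-CTC-1, which turned without WT replicate 1, −1.46 to 1.09 for Atxn2, −0.23 to 0.088 for Snhg14, −0.24 to 0.094 for Rmrp, −0.22 to 0.41 for let-7f-5p, −0.077 to 0.34 for miR-16-5p, −0.19 to 0.55 for miR-21a-5p and −0.53 to 1.02 for tRNA-Asp-GTC-1. Quality weights gave 0.80 for Atxn2, and no low count filter 0.013 for Snhg14 and 0.018 for Rmrp. Library totals gave −0.074 for let-7f-5p, −0.020 for miR-21a-5p and −0.12 for tRNA-Asp-GTC-1. TMM from mature miRNA gave −0.13 for let-7f-5p, −0.098 for miR-16-5p and −0.0057 for miR-21a-5p. The stricter filter gave −0.16 for let-7f-5p, −0.036 for miR-16-5p, −0.0846 for miR-21a-5p and −0.17 for tRNA-Asp-GTC-1. Without protein-coding genes and pseudogenes the same 4 were −0.19, −0.079, −0.11 and −0.16. In 1 fit of 18 libraries let-7f-5p was −0.011 and tRNA-Asp-GTC-1 −0.029, and the latter was −0.012 with DESeq2 and with RLE factors.

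The number that differed from microglia, 102, was 60 with the 12 libraries of the compared fractions, 100 with library totals and 145 with DESeq2. Leaving out 1 library gave 11 to 198, with 11 and 55 without KIN replicates 2 and 3 of microglia, 38, 191 and 31 without WT replicates 1 to 3 of microglia, 64 without KIN replicate 3 of neurons, and 198 and 169 without WT replicates 1 and 3 of neurons. That from astrocytes stayed 0 in all alternatives run.

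Without WT replicate 2 the difference of KIN and WT shares, in percentage points, turned for long noncoding RNA (−0.428), mitochondrial tRNA (0.277), protein-coding genes (−0.368), snoRNA (−1.55) and tRNA (1.42). Leaving out each library gave −0.428 to 1.99, −1.62 to 0.277, −0.368 to 0.724, −1.55 to 2.45 and −2.40 to 1.42 for these.

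Whether the replicate numbers mark pairs is not given by the labels, and so few libraries cannot settle it. Same-numbered WT and KIN libraries correlated in their deviations at −0.166, −0.0364 and −0.0488, and others at −0.136 to 0.172. With the replicate number as a block Rmrp was 0.0076, 0 members were called, 121 at an unadjusted p of at most 0.05, and 118 differed from microglia. Depth limits miRNAs of a few CPM, such as miR-200a-3p with 1 to 24 counts a library.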

Other observations

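Some members outside the rule, chosen after their values were seen, also differed between neurons and microglia. miR-34a-5p, a target of p53, had a fold change of −1.77 in neurons and 2.11 in microglia in the fit of 18 libraries, a difference of −3.88 on the log2 scale. In neurons it was 0, 16.7 and 0.61 CPM in WT and 3.07, 1.87 and 0.79 CPM in KIN, so its direction rested on WT replicate 2, and the fold change was 2.22 without that library. miR-92b-3p had 0.42 in neurons and −3.05 in microglia. Myo9a, an unconventional myosin, was 0, 1.02 and 1.96 CPM of the library total in WT and 6.83, 4.53 and 4.95 CPM in KIN neurons, and 1.44, 1.73 and 2.45 CPM in WT against 0.318, 0.695 and 0.931 CPM in KIN microglia. The groups were apart in both fractions, in opposite directions. miR-9b-3p, annotated apart from miR-9, was called with a fold change of 2.44 when WT replicate 2 of neurons was left out.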
